A study of Homo sapiens with 6 samples.

Results

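FMR1 and its paralogs FXR1 and FXR2 encode a small family of cytoplasmic RNA-binding proteins. FMR1 protein, FMRP, carries KH domains and an arginine- and glycine-rich RGG box, associates with ribosomes and represses the translation of many mRNAs. Its loss causes fragile X syndrome. FXR1 and FXR2 share the KH domains and bind FMRP and each other. FMR1 and FXR1 are known to be alternatively spliced towards their 3′ ends, where exon choice changes the part of the protein that follows the KH domains.

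The values came from splice junction tables of poly(A)+ RNA from K562, a line established from chronic myeloid leukaemia. Of the 6 libraries, 3 were labelled as a wild-type U2AF1 knock-in and 3 as U2AF1 S34F. U2AF1 is the small subunit of the factor that recognises the AG closing an intron (the acceptor), and S34F replaces a serine in its first zinc finger with phenylalanine. Number of clones, allele dosage and whether the 3 libraries of a group were separate cultures are not stated in the labels, so p-values measure only the spread between these libraries. The libraries held from 18074706 to 39279169 uniquely mapped spliced reads, with S34F replicate 2 the shallowest and S34F replicate 3 the deepest. The S34F base change and the marker genes of K562 were not analysed here.

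Members were chosen by position on hg19, the build named in the submitters' processing notes. They are the junctions that lie inside chrX:146993400-147032700 on the plus strand (FMR1), chr3:180630200-180695150 on the plus strand (FXR1) and chr17:7494500-7518250 on the minus strand (FXR2). These regions held 144 of the 780566 junctions listed in the series, 50 in FMR1, 62 in FXR1 and 32 in FXR2. The files mark 75 of them as annotated. A unique read was present for 137 of the 144, and 58 had a unique read in all 6 libraries. FMR1 was itself selected on values of these libraries, the shares of 2 acceptors 51 nt apart in its last intron, and differences between S34F and wild type in FMR1 are therefore given as a description, with no p-value or call. FXR1 and FXR2 were included as its paralogs. Shares below are the unique reads of a junction divided by those of all member junctions leaving the same 5′ splice site (the donor). Donor positions are the intron's base next to the upstream exon, and acceptor positions are its base next to the downstream exon.

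The exon structures of the 3 genes were read from their junctions, by following the annotated junction with the most reads from the 5′ end. The lengths of the first 9 internal exons were the same in all 3 genes: 53, 94, 72, 149, 94, 117, 171, 79 and 110 nt, which sum to 939 nt. FXR1 and FXR2 also shared the tenth, at 87 nt. FMR1 had a 135 nt exon in that place, followed by its own 87 nt exon. After that the lengths differed, with 58, 63, 204 and 201 nt in FXR1, 223, 198, 201, 96 and 101 nt in FXR2, and 196, 183 and 83 nt in FMR1. Introns were not alike in size. Their median length was 2180 nt in FMR1, 1954 nt in FXR1 and 329.5 nt in FXR2. The splicing differences between the groups that are described below lie in the part of FMR1 and FXR1 beyond the run of equal exons, except for rarely used unannotated exons in FMR1.

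**Figure D1:**
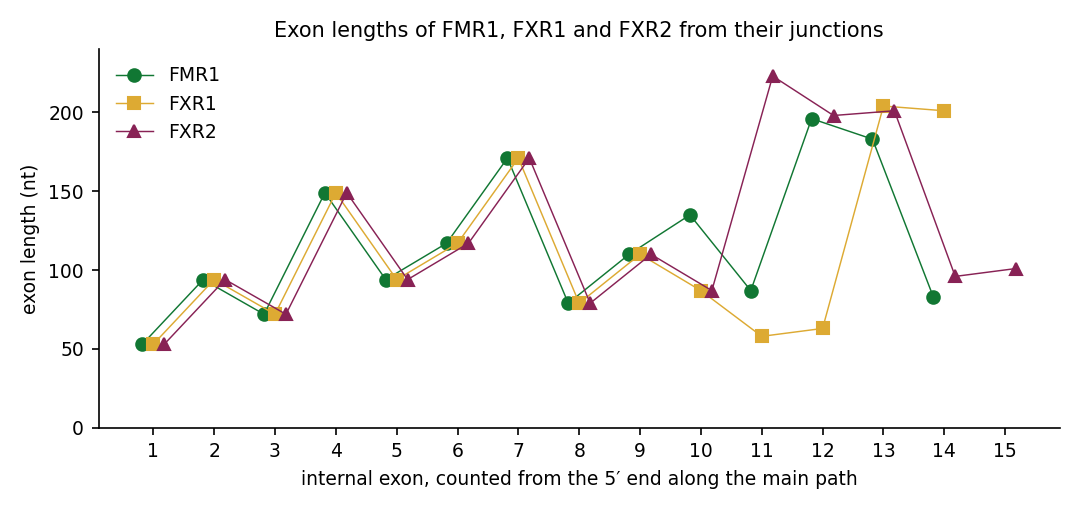
Length in nt (y axis) of each internal exon, numbered from the 5′ end (x axis), for FMR1 (circles), FXR1 (squares) and FXR2 (triangles), read from the annotated junctions with the most reads. The points, set apart sideways so that all can be seen, lie at the same height in the 3 genes for the first 9 exons and at different heights after that, except the tenth of FXR1 and FXR2.

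In wild-type cells the last intron of FMR1 ended at 3 annotated acceptors, and in S34F cells most reads used the most downstream one. All 3 share the donor at 147027137, which closes exon 16 when exons are counted along the gene with the optional 63 nt exon included. The acceptors lie at 147029932, 147030202 and 147030253, so that the first is 270 nt upstream of the second and the second 51 nt upstream of the third. Both distances are multiples of 3, so that the choice does not by its length shift the reading frame. Whether the added sequence holds a stop codon was not analysed. The last exon, exon 17, thus starts at 1 of 3 places.

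The acceptor at 147030202 took 11, 12 and 16 reads in wild-type replicates 1, 2 and 3, and 4, 3 and 6 reads in S34F replicates 1, 2 and 3. The acceptor at 147030253 took 12, 10 and 13 reads in wild type and 53, 21 and 78 in S34F. Between these 2 acceptors the upstream one was about as frequent as the downstream one in every wild-type library and a small minority in every S34F library. Its share of the pair was 47.8%, 54.5% and 55.2% in wild type against 7.02%, 12.5% and 7.14% in S34F. The group means were 52.5% ± 4.07 and 8.89% ± 3.13 (SD, n = 3 each). With 22 to 84 reads per library the counting error is wide, from 26.8% to 69.4% in wild-type replicate 1 and from 2.66% to 32.4% in S34F replicate 2 (95% Clopper-Pearson intervals, which cover counting error only). The lowest wild-type bound lay below the highest S34F bound, while the shares themselves did not overlap. Over all junctions of the series that could be tested, 25.2% had groups that did not overlap, and 2.11% were called, meaning an edgeR adjusted p under 0.05 with group means at least 10 percentage points apart.

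The shift was seen at both acceptors in RPM, the reads per 1000000 unique spliced reads of the library. The upstream acceptor was at 0.433, 0.481 and 0.826 in wild type and at 0.170, 0.166 and 0.153 in S34F. The downstream acceptor was at 0.472, 0.401 and 0.671 in wild type and at 2.26, 1.16 and 1.99 in S34F. The most upstream acceptor, 147029932, was also less used in S34F. Over all reads leaving the donor its share was 20.7%, 14.8% and 9.38% in wild type against 4.92%, 4.0% and 3.41% in S34F. On the same denominator the acceptor at 147030253 went from 39.7% ± 2.32 to 86.5% ± 2.34. Neither of these shares overlapped between the groups.

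**Figure D2:**
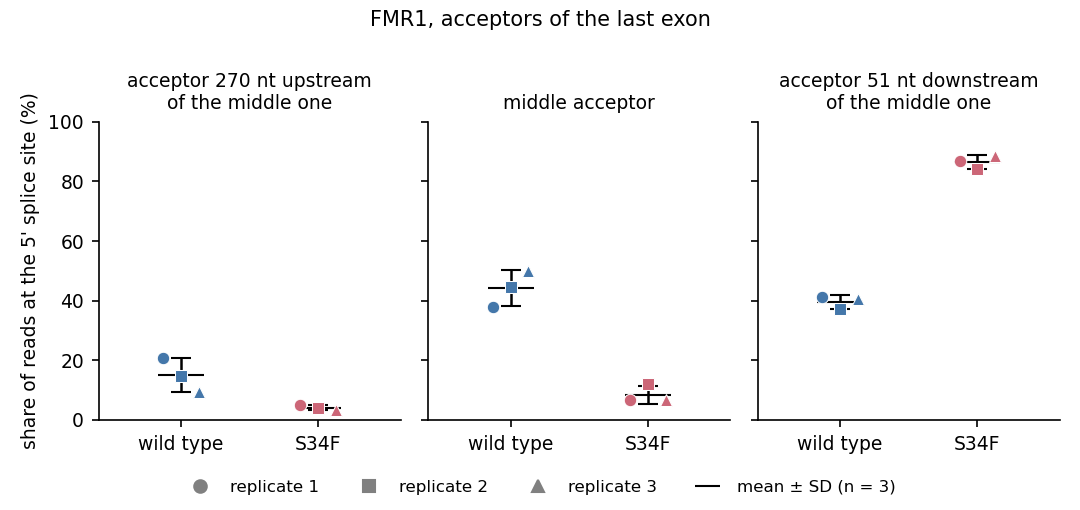
Share of reads in % (y axis) at each of the 3 annotated acceptors of the FMR1 last exon, ordered from upstream to downstream, in wild type and S34F; points are libraries and bars are mean ± SD (n = 3). Wild-type libraries sit between 37.0% and 41.4% at the downstream acceptor and S34F libraries between 84.0% and 88.6%.

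Exon 15 of FMR1, which encodes the RGG box, has tandem acceptors as well, and its first acceptor was used less in the S34F libraries. It falls outside the rule for named events because S34F replicate 2 had only 14 reads there, and is described because its values stood out. The 3 annotated acceptors share the donor at 147024847 and lie at 147026388, 147026424 and 147026463, 36 and 39 nt apart, again multiples of 3. Wild-type replicates 1, 2 and 3 had 16, 25 and 17 reads at the first acceptor, and S34F replicates had 10, 6 and 22. At the last acceptor they had 3, 1 and 2 reads in wild type and 10, 5 and 15 in S34F.

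The first acceptor's share was 69.6%, 92.6% and 85.0% in wild type against 37.0%, 42.9% and 48.9% in S34F. The means were 82.4% ± 11.7 and 42.9% ± 5.93, with no overlap. The last acceptor, which gives the shortest exon, went from 8.92% ± 4.76 to 35.4% ± 1.88, also with no overlap. At the middle one the groups overlapped, with 8.70% ± 7.56 in wild type against 21.0% ± 5.20 in S34F. Multi-mapped reads, left out of these shares, weighed most there. Over the 6 libraries the middle acceptor had 11 beside 23 unique reads. The first had 4 beside 96 and the last 4 beside 36. Summed over libraries, the first acceptor held 58 of 70 reads in wild type and 38 of 86 in S34F. In both tandem sets of FMR1 the reads of S34F cells thus lay further downstream, and the forms made within each set differ in length by multiples of 3.

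**Figure D3:**
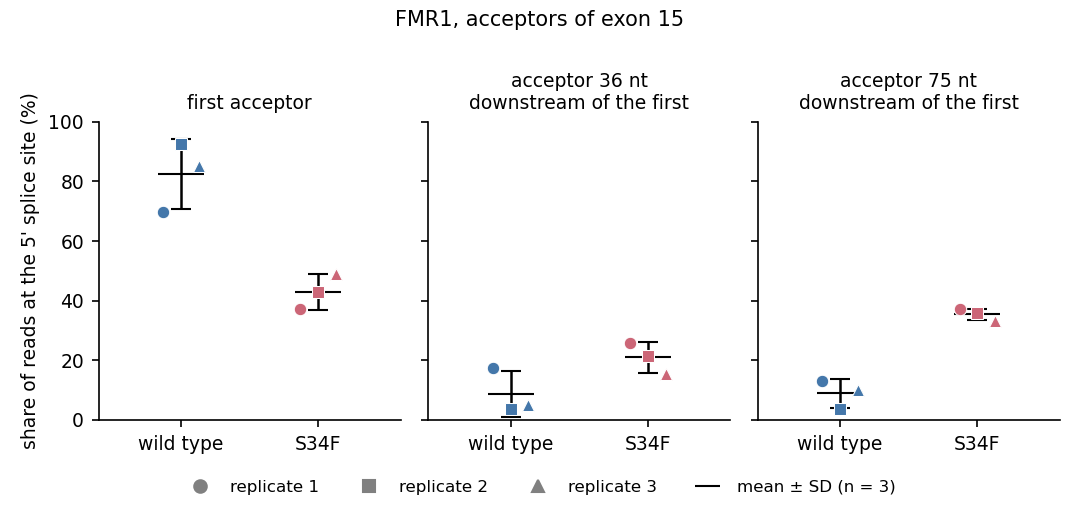
Share of reads in % (y axis) at each of the 3 annotated acceptors of FMR1 exon 15, ordered from upstream to downstream, in wild type and S34F; points are libraries and bars are mean ± SD (n = 3). The first acceptor lies between 69.6% and 92.6% in wild type and between 37.0% and 48.9% in S34F.

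Exon 14 of FMR1, 196 nt long, encodes a nuclear export signal, and leaving it out shifts the reading frame. Nearly all reads from the donor at 147022182 entered it in both groups. Its acceptor, at 147024650, took 96.8%, 100% and 100% of the reads in wild type and 93.2%, 91.7% and 93.4% in S34F. The annotated skipping junction, from 147022182 to 147026463, had 0 of 95 reads in wild type. In the S34F replicates it had 2, 2 and 4 reads, 8 of 159 in all. The 0 of 95 reads, pooled over the wild-type libraries, allow a share of up to about 3.16%, which is 3 divided by 95. This limit covers counting error only, not the spread between libraries. Unannotated junctions also skipped exon 14, to 147026388 with 1 read in wild-type replicate 1 and 2 in S34F replicate 3. Another, to 147026424, had 1 read in S34F replicate 1. The annotated skipping junction, to 147026463, joins the last of the tandem acceptors of exon 15.

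Exon 12 of FMR1, the optional exon of 63 nt at chrX:147019618-147019680, lengthens a loop of a KH domain. It was mostly skipped in both groups, and is outside the rule for named events. Its inclusion level, the mean of both inclusion junctions over that mean plus the skipping junction, was 17.1%, 10.3% and 14.3% in wild type against 17.4%, 21.2% and 12.4% in S34F. These ranges overlapped. S34F replicate 2 had 17 reads at its donor.

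FMR1 also had unannotated junctions whose reads lay mainly in S34F libraries. A 92 nt exon at chrX:147012392-147012483 was entered from the donor at 147011764 by 7, 1 and 3 reads in the S34F replicates. In wild type 0 of 109 pooled reads from that donor entered it. That allows a share of up to about 2.75%, again 3 divided by the pooled reads and for counting error only. The junction out of that exon had 0, 0 and 1 reads in wild type and 0, 2 and 4 in S34F. The same junction also leaves an unannotated 150 nt form, which starts at 147012334. That form was entered by 1 read in wild-type replicate 1 and by 1 in S34F replicate 3. At another donor with an unannotated branch, 147014283, reads went to the annotated acceptor at 147018022 with 95.4% ± 4.17 of reads in wild type and 95.6% ± 4.90 in S34F. A 46 nt exon at chrX:147017533-147017578, in that intron, was left by 12, 0 and 10 reads in S34F and by 2, 0 and 0 in wild type. It was entered by only 6, 0 and 1 reads in S34F and by 2, 0 and 0 in wild type, shares of 3.52% ± 5.35 and 1.85% ± 3.21 that overlapped. Unannotated junctions together took 1.71%, 0.390% and 1.37% of FMR1 reads in wild type and 4.12%, 1.43% and 2.33% in S34F, so that the groups overlapped. In FXR1 they took 0.289% ± 0.139 and 0.339% ± 0.0713, and in FXR2 0.512% ± 0.380 and 0.482% ± 0.133. Over all junctions of the libraries the values were 1.14% ± 0.110 and 1.31% ± 0.0717. These exons and the donor at 147014283 were named after their values were seen.

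The FMR1 pair was set beside the other competing acceptors, which are pairs 10 to 100 nt apart at 1 donor with at least 20 reads in every library. There were 3643 such pairs, of which 3641 lay outside the 3 genes, and the FMR1 pair was counted among them. Of these, 0 had a larger fall of the upstream share than the FMR1 pair, whose mean fell by 43.6 percentage points. FMR1 was chosen for that change, so that its rank is no independent result. Likeness was the mean absolute difference of the upstream share from that of FMR1 over the 6 libraries. The pairs below were picked by that likeness in both groups, so that a fall near that of FMR1 follows from the choice. The nearest pair lay on the plus strand of chromosome 6, with acceptors at 88304244 and 88304259, at a mean difference of 7.17 points, and its upstream share went from 47.9% ± 7.0 to 12.4% ± 7.96. The next, on the plus strand of chromosome 1 at 29016585 and 29016615, went from 45.3% ± 0.789 to 16.5% ± 2.38. Another on the same strand of chromosome 1, at 155279833 and 155279854, went from 47.2% ± 2.51 to 19.6% ± 5.73. The fourth, on the minus strand of chromosome 18 at 9595152 and 9595101, is also 51 nt apart and went from 39.5% ± 14.5 to 9.60% ± 2.07. The fifth, on the minus strand of chromosome 1 at 47728789 and 47728735, went from 49.9% ± 13.2 to 20.1% ± 1.87. Genes at these positions were not analysed here.

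In FXR1 a 92 nt exon near the 3′ end, at chr3:180693101-180693192, had a higher inclusion level in every S34F library than in any wild-type library, but the difference did not pass the test. Its length is not a multiple of 3, so that including it changes the reading frame of the sequence that follows and with it the end of the protein. The donor at 180688147 joined the exon's acceptor at 180693100 with 133, 109 and 80 reads in wild-type replicates 1, 2 and 3, and with 195, 97 and 233 reads in the S34F replicates. It skipped to 180693909 with 175, 260 and 163 reads in wild type and with 152, 88 and 214 in S34F. Skipping was thus the more frequent choice in wild type and inclusion in S34F.

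The inclusion level was 43.2%, 30.9% and 34.3% in wild type against 59.2%, 55.3% and 51.9% in S34F. The means were 36.1% ± 6.33 and 55.5% ± 3.64 (SD, n = 3 each), and wild-type replicate 1 was nearest to the S34F range. In edgeR's quasi-likelihood test over 19202 exons, on rounded mean inclusion counts, the log2 odds of inclusion were 1.15 higher in S34F with an SE of 0.36, at a Benjamini-Hochberg adjusted p of 0.0643. The junction into the exon, tested among 51522 junctions, gave a log2 odds of 1.09 (SE 0.35, edgeR adjusted p = 0.0732). In the fits without wild-type replicate 1 the adjusted p was 0.0141 for the exon and 0.0138 for the junction, past the threshold of 0.05; over all alternatives it ranged from 0.0141 to 0.376 for the exon and from 0.0138 to 0.515 for the junction. Groups that do not overlap were common among the features tested, 29.2% of the exons and 25.2% of the junctions.

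**Figure D4:**
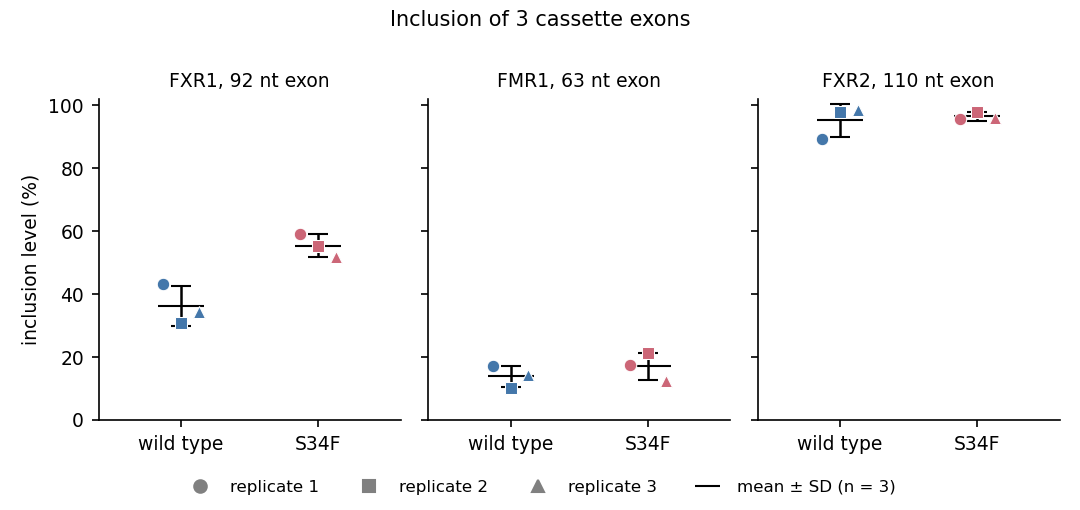
Inclusion level in % (y axis) of the FXR1 92 nt exon, the FMR1 63 nt exon and the FXR2 110 nt exon in wild type and S34F; points are libraries and bars are mean ± SD (n = 3). The FXR1 exon lies between 30.9% and 43.2% in wild type and between 51.9% and 59.2% in S34F, while the groups overlap for the other 2 exons.

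Just upstream of it FXR1 has an 81 nt exon, at chr3:180688863-180688943, that is known from muscle transcripts. In these cells the donor at 180688147 entered it with 7, 2 and 2 reads in wild type and 3, 2 and 9 in S34F, which is 1.19% ± 0.903 and 1.30% ± 0.594 of the donor's reads. At the 5′ end of FXR1 the donor of exon 1, at 180630525, was joined to the usual acceptor at 180651121 in 96.9% ± 1.02 of reads in wild type and 96.1% ± 1.51 in S34F. The other constitutive steps of FXR1 that could be tested kept at least 98.4% of the reads of their donor in both group means. These were the donors at 180680879 and 180686043. The donors of FXR1 other than 180688147 were also named after their values were seen.

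FXR2 had little alternative splicing in these cells, and no event of it met the rule for named events, so that those described were chosen after their values were seen. Its ninth internal exon, 110 nt at chr17:7497556-7497665, is skipped by an unannotated junction from the donor at 7497996 to the acceptor at 7497323. That junction had 10, 2 and 1 reads in wild type and 4, 1 and 6 in S34F. The exon's inclusion level was 89.2%, 98.1% and 98.6% in wild type against 95.6%, 98.0% and 95.9% in S34F, so that wild-type replicate 1 had the lowest value and the groups overlapped. By edgeR the log2 odds of inclusion were 0.35 higher in S34F with an SE of 0.75, at an adjusted p of 0.816. FXR1 and FMR1 have an exon of the same length in the same place, and no junction skipping that exon alone was listed in either. At the last intron of FXR2 the donor at 7495571 used the acceptor at 7495244 in 96.5% ± 1.81 of reads in wild type and 98.0% ± 3.48 in S34F.

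Calls used an adjusted p under 0.05 and group means at least 10 percentage points apart. Over the series 2.11% of the 51522 junctions tested were called, and 2.50% of the 19202 exons. Calls that were higher in S34F made up 1.02% of the junctions and 0.932% of the exons. Of the 144 member junctions 19 could be tested, 5 in FMR1, 10 in FXR1 and 4 in FXR2. Among the others, 7 had no unique read, 72 had 1 to 9 in all, 39 had under 10 reads at the other junctions of their donor, and 7 left a donor with under 20 reads in some library. No calls are given for FMR1, which was chosen on this contrast. In FXR1 and FXR2 0 of 14 junctions and 0 of 4 exons were called with edgeR, with 2 junctions and 1 exon at an unadjusted p under 0.05, all at the FXR1 92 nt exon. Over the series 10263 of the 51522 junctions and 4548 of the 19202 exons had an unadjusted edgeR p under 0.05, so such values were common. DESeq2 and limma also called 0 there. In these 2 genes DESeq2 had 2 junctions and 1 exon at an unadjusted p under 0.05, and limma had 4 and 1. Over the series DESeq2 had 6111 junctions and 3452 exons at that level, and limma had 9648 and 4265. Over the whole series DESeq2 called 140 junctions and 263 exons. With limma the series had 0 of each, so that its 0 in FXR1 and FXR2 was fixed in advance. The median absolute difference was 0.644 percentage points over the 10 FXR1 junctions tested and 1.25 over the 4 of FXR2, and 1.48 over all junctions tested.

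FXR1 was the most abundant of the 3 and FMR1 the least. Levels were compared between genes per constitutive junction, meaning an annotated junction with at least 90% of the reads at both of its ends, since reads at a junction do not depend on transcript length. FMR1 had 12 such junctions, FXR1 14 and FXR2 16. In RPM per constitutive junction, FMR1 was at 1.18, 1.36 and 1.5 in wild type and at 1.89, 0.991 and 1.99 in S34F. FXR2 was at 3.07, 3.10 and 2.77 in wild type and at 3.76, 2.77 and 3.33 in S34F. FXR1 was at 12.1, 13.7 and 14.0 in wild type and at 15.1, 9.29 and 10.6 in S34F. The order FXR1, FXR2, FMR1 held in all 6 libraries with no overlap between genes. Within each gene the first junction had fewer reads than the second: over the 6 libraries 103 in FMR1, 946 in FXR1 and 245 in FXR2, against 148, 1641 and 396. The ratio of FXR1 to FMR1 was 10.2, 10.1 and 9.30 in wild type against 7.98, 9.37 and 5.32 in S34F.

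**Figure D5:**
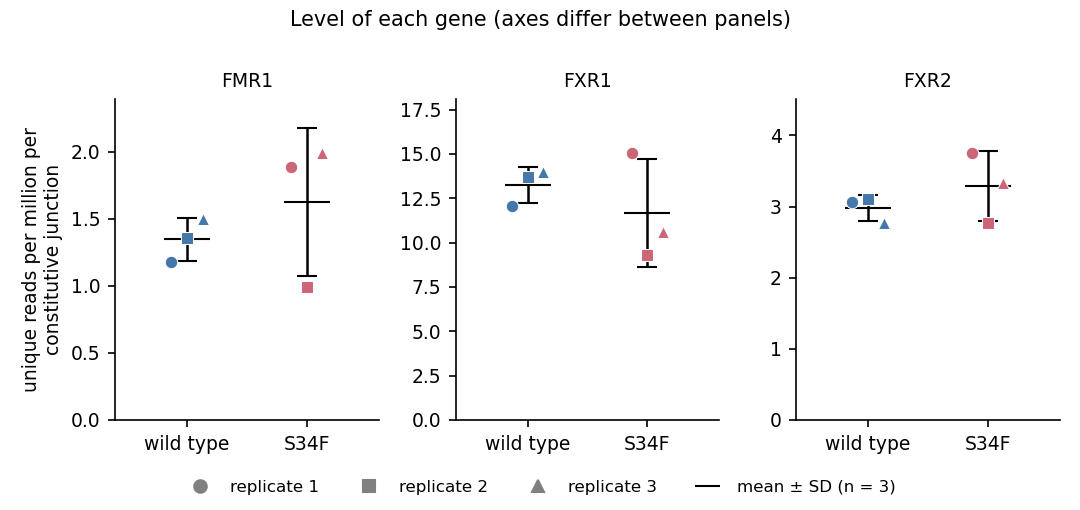
RPM per constitutive junction (y axis, starting at 0 and scaled separately for each gene) for FMR1, FXR1 and FXR2 in wild type and S34F; points are libraries and bars are mean ± SD (n = 3). The S34F libraries spread more widely than the wild-type ones, with replicate 2 the lowest of them in each gene.

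Summed over the annotated junctions of each gene, the levels of the groups overlapped. FMR1 had 20.3 ± 2.11 RPM in the wild-type libraries and 24.7 ± 8.14 in the S34F libraries. Its p-value is not given, since the gene was chosen on this contrast, but it entered the adjustment over the 3 genes. FXR1 had 204.0 ± 14.8 and 183.6 ± 47.2 (n = 3 per group; two-sided exact permutation p = 0.6, adjusted p = 0.6 over the levels of the 3 genes), and FXR2 had 47.8 ± 2.98 and 52.7 ± 7.91 (exact permutation p = 0.4, adjusted p = 0.6). The smallest p that 3 against 3 libraries allow is 0.1. S34F replicate 2, the shallowest library, was the lowest of its group in each gene. Without it the S34F mean was 29.3 for FMR1, 201.7 for FXR1 and 56.9 for FXR2, so that the difference for FMR1 went from 4.36 to 9.05 RPM, that for FXR2 from 4.92 to 9.06 and that for FXR1 from -20.4 to -2.30. Leaving out S34F replicate 1 moved them the other way, to 2.30 RPM for FMR1, 1.19 for FXR2 and -47.1 for FXR1. Without S34F replicate 3 the difference was 1.73 RPM for FMR1 and -11.8 for FXR1, and without wild-type replicate 3 it was 3.20 for FXR2. The sign held in each of these. In RNA from a whole culture, fewer cells that express a gene and less RNA per cell cannot be told apart.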

How the data were processed

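Each library came with 1 headerless table of 9 columns in the layout of STAR junction output. Per the submitters' processing notes, reads were aligned with STAR to hg19; version, annotation and junction filters are not given in the sources used here. The deposited values are raw counts of uniquely mapped and multi-mapped reads per junction, with no normalization by the authors. The tables also list intron positions and the largest overhang in nt, other deposited values used only to place or filter junctions.

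Tables were joined on position, with a missing junction counted as 0. Each junction was tested against the other junctions of its donor, and each exon of at most 500 nt by inclusion against skipping, with edgeR 4.0.16 (R 4.3.3; quasi-likelihood F-test, legacy mode, robust), an intercept per library and all 6 libraries. At least 20 reads in every library and 10 on each side were required. The standard error is the absolute coefficient over the square root of F. DESeq2 1.42.0 and limma 3.58.1 were alternatives. Scripts ran in Python 3.11.15.

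The members and lists were chosen with earlier results of these data known. Named events were donors with at least 20 reads in every library where a second junction took at least 5% in the mean of either group, exons included at 5% to 95%, and events called; others named are marked as chosen after their values were seen. A list of FMRP partners, markers of K562 and splice site sequences need an hg19 annotation or genome and were not used here. The groups were the 3 wild-type and 3 S34F libraries.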

Additional observations from a re-analysis of the deposited data

How the results depend on the processing

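For the FXR1 92 nt exon the difference ran from 16.7 to 22.9 percentage points over 16 alternatives, with adjusted p-values from 0.0141 to 0.376. Its direction could not change with the model, count filter or call threshold, which leave the shares as they are. Nor could it change when a library was left out, since the shares of the groups did not overlap. Among the alternatives the exon passed only without wild-type replicate 1. Leaving out each library gave from 0 to 2 junctions and from 0 to 1 exons of FXR1 and FXR2 called. The difference of the FMR1 pair, -43.6 percentage points, became -35.7 when all junctions of the donor formed the denominator, by construction, and ranged from -46.0 to -42.3 when each library was left out. The shares of this pair chose the gene and did not overlap between the groups, so that a fall was bound to remain. The levels of the 3 genes kept their direction under 11 alternatives each. Over the whole table the number of junctions called, 1088, was 140 with DESeq2, 0 with limma (9648 at an unadjusted p under 0.05), 494 with no low-count filter, 682 with at least 50 reads, 2386 with no minimum difference and 473 with 20 points; leaving out each library gave from 77 (without S34F replicate 3) to 1932 (without wild-type replicate 1). The number of exons called, 481, was 263 with DESeq2, 0 with limma (4265 at an unadjusted p under 0.05), 289 with at least 50 reads, 1056 with no minimum difference, 211 with 20 points and 216 with the replicate block; leaving out each library gave from 0 (without S34F replicate 3, with 2515 at an unadjusted p under 0.05) to 1017 (without wild-type replicate 1). The cause of these changes was not tested, beyond the thresholds and filters themselves. Same-numbered libraries did not deviate together (correlations of -0.086, -0.0229 and -0.0364 over 51522 junctions), so the numbers were not taken as pairs; with the replicate block the FXR1 exon had an adjusted p of 0.137. Depth limits FMR1 most, with 9 to 114 reads at the donors described.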
